A study of Mus musculus with 9 samples.

Results

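The microglia and macrophage genes are 31 genes that mark the brain's resident macrophages or white blood cells more widely. They were followed in the cerebral cortex of embryonic mice (E13.5). Members were taken by name, and their levels came from probe sets that the platform annotation assigns to 1 gene alone. The members were chosen with earlier results of these data known. Their counts and shares beside those of all genes are therefore descriptions and not independent support. All 31 were among the 22296 gene symbols on the array and all 31 were measured, of 16854 genes measured in all. Total RNA from the dissected cortical region was hybridised to whole-transcript exon arrays, 1 array per sample and 3 per group. The controls are labelled wild type, and the other groups are labelled Sfpq+/- and Sfpq-/-, heterozygous and homozygous for loss of Sfpq, which encodes a nuclear RNA-binding protein of transcription and splicing. The labels name no strain, litter, deleted exon, promoter or Cre driver, so it is not known here which cells of the cortex lost Sfpq. Nor do they state whether embryos of 1 group had different mothers, and p-values then measure the spread between these samples.

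Microglia arise from yolk sac progenitors, reach the brain before most of its neurons are born, and live there as its macrophages. They depend on the receptor Csf1r, sense neurons through the fractalkine receptor Cx3cr1 and nucleotides through P2ry12, and clear dying cells by phagocytosis. The adaptor Tyrobp (DAP12) carries the signal of the lipid receptor Trem2, and C1qa, C1qb and C1qc encode the chains of C1q, which starts the classical complement pathway. Other macrophages of the meninges and vessels share many of these genes and carry in addition Mrc1 and Pf4. Several members (Ptprc, Cd53, Laptm5, Coro1a, Vav1, Cyth4, Fcer1g) are found in most white blood cells.

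In Sfpq-/- cortex 7 of the 31 members rose against control and none fell: the lysosomal gene Cd68, the receptor Trem2 with its adaptor Tyrobp, the complement genes C1qb and C1qc, and the receptors Cx3cr1 and P2ry12, by 1.21-fold to 1.42-fold (limma adjusted p under the threshold of 0.05, adjusted over all genes measured). That is 22.6% of the members, where 5.98% of all genes measured were called higher and 6.12% lower (12.1% in either direction). The median log2 change of the members was 0.185, against 0.027 over all genes, and 30 of the 31 lay above 0, against 56.8% of all genes. Against Sfpq+/- cortex, 3 members rose (Cd68, C1qb and Cd14), 9.68% of the members beside 4.58% of all genes, and none fell, beside 7.25% of all genes (11.8% in either direction, above the members' share). In Sfpq+/- against control cortex no member passed limma's test, as no gene did, and 1 member (3.23%) had an unadjusted p under 0.05, against 4.24% of all genes. The count of 7 did not hold when 1 array was left out. It was 2 without control 1 (6.45% of members, beside 4.85% of all genes called higher and 9.61% in either direction) and 1 without control 2 (3.23%, beside 3.41% and 7.97%). Without control 3 it was also 1 (3.23%, beside 3.63% and 8.94%), as it was without Sfpq-/- 1 (3.23%, beside 3.22% and 7.78%). It was 5 without Sfpq-/- 2 (16.1%, beside 4.56% and 11.5%) and 3 without Sfpq-/- 3 (9.68%, beside 8.76% and 14.6%). In 5 of these 6 fits the members' share was thus near that of all genes called higher and below that of all genes called in either direction. Cd68 was called against control in each of the 6.

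The promoters of the members that rose are shown because genes of this lineage share the ETS factor PU.1, whose binding sites hold the letters GAGGAA. Promoter sequences from RefSeq (build GRCm38.p6) were matched by symbol for 24 of the 31 members, with 28 promoters. Tyrobp, C1qa, Csf1r, Cd14, Cd86, Tmem119 and Gpr34 had no entry there. Of the called members with an entry, C1qb, C1qc, Cd68 and Trem2 hold GAGGAA on one strand within the 250 bases before the gene's start, and these are printed 5′ to 3′ on the gene's strand, ending at the base before the start. Capitals mark the match, GAGGAA itself or, on the opposite strand, TTCCTC.
C1qb (chr4:136886201-136886450, minus strand): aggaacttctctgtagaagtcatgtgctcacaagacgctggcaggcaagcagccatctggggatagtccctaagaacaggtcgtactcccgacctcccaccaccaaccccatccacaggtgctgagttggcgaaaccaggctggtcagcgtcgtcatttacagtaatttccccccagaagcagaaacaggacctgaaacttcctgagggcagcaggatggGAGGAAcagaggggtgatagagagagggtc
C1qc (chr4:136892915-136893164, minus strand): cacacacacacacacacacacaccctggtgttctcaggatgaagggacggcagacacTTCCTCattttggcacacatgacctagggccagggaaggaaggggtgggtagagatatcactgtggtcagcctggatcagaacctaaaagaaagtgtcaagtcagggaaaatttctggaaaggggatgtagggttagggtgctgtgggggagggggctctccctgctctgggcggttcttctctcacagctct
Cd68 (chr11:69666171-69666420, minus strand): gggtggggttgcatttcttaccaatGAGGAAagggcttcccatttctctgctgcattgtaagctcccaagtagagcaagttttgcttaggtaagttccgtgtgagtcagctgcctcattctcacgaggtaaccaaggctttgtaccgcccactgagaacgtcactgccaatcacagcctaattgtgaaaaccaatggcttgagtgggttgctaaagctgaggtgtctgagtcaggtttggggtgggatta
Trem2 (chr17:48346151-48346400, plus strand): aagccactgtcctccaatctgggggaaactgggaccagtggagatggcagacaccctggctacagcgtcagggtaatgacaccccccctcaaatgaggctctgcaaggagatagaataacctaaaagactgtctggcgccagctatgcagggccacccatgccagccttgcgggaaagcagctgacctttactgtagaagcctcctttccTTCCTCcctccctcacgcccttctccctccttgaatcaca
The match lies 30 to 25 bases before the start in C1qb (-30 to -25), at -193 to -188 in C1qc, at -225 to -220 in Cd68 and at -40 to -35 in Trem2. In C1qc it extends to the longer form GAGGAAGT (-195 to -188), which contains GAGGAA. Searched on both strands, GAGGAA occurs in 16 of the 28 member promoters (57.1%) and in 23.3% of all 32851 promoters of the same 250 bases. GAGGAAGT occurs in 3 member promoters (10.7%; C1qc, Pf4 and Vav1) and in 2.44% of all, and the ETS-IRF composite motif in 0 of the 28 and 2.3% of all. With the 50 bases after the start included (300 bases), GAGGAA occurs in 64.3% of member promoters and 28.3% of all, GAGGAAGT in 6 (21.4%) and 3.2%, and the composite motif in 1 (3.57%) and 2.72%. Cx3cr1 and P2ry12 have no GAGGAA in this window. These matches describe letters and are not measured binding sites.

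The largest difference among the members was that of Cd68, the lysosomal glycoprotein used as a marker of phagocytic macrophages. Its log2 signal was 7.88, 7.75 and 7.61 on the 3 control arrays, 7.97, 7.91 and 7.76 on the Sfpq+/- arrays and 8.37, 8.25 and 8.14 on the Sfpq-/- arrays. The 3 Sfpq-/- arrays were the highest of the 9, while the Sfpq+/- and control arrays overlapped. Against control, Cd68 was 1.42-fold higher with loss of both copies (0.51 on the log2 scale, SE 0.10, limma adjusted p = 0.00492), and it was 1.29-fold higher than in Sfpq+/- (0.37, SE 0.10, limma adjusted p = 0.027). With 1 array left out, the call against Sfpq+/- was lost in 4 of 6 fits, and it was lost in 3 of 11 other alternatives, with a limma adjusted p of up to 0.261. All 10 of its probe sets were higher in Sfpq-/- than in control, by 0.25 to 0.76 on the log2 scale.

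The phagocytic receptor Trem2 and its adaptor rose as well. Tyrobp was at 8.27, 8.13 and 8.03 in controls, 8.14, 8.27 and 8.27 in Sfpq+/- and 8.52, 8.44 and 8.55 in Sfpq-/- cortex. Trem2 was at 7.79, 7.65 and 7.81 in controls, 7.77, 7.75 and 7.94 in Sfpq+/- and 8.16, 7.94 and 8.19 in Sfpq-/- cortex. Each Sfpq-/- array lay above each control array for both genes, although for Trem2 the lowest Sfpq-/- array stood next to the highest Sfpq+/- array. The change against control was 0.36 for Tyrobp (SE 0.08, limma adjusted p = 0.0157) and 0.34 for Trem2 (SE 0.09, limma adjusted p = 0.0324). Against Sfpq+/- neither passed (0.28, limma adjusted p = 0.0562 for Tyrobp, and 0.27, limma adjusted p = 0.0866 for Trem2). Among the fits that left out 1 of the 6 arrays compared, Tyrobp kept its call against control in 3 and Trem2 in 1.

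The 3 chains of C1q are encoded by neighbouring genes on chromosome 4 and had like differences. C1qb was at 8.95, 8.83 and 8.91 in controls, 8.74, 8.85 and 8.88 in Sfpq+/- and 9.24, 9.06 and 9.29 in Sfpq-/- cortex. C1qc was at 7.80, 7.63 and 7.78 in controls, 7.64, 7.88 and 7.90 in Sfpq+/- and 8.20, 7.94 and 8.11 in Sfpq-/- cortex. C1qa was at 7.57, 7.49 and 7.68 in controls, 7.37, 7.52 and 7.64 in Sfpq+/- and 7.70, 7.83 and 7.95 in Sfpq-/- cortex. For each chain the 3 Sfpq-/- arrays were the highest of the 9. C1qb rose by 0.30 against control (SE 0.08, limma adjusted p = 0.0381) and by 0.37 against Sfpq+/- (SE 0.08, limma adjusted p = 0.0117). C1qc rose by 0.35 against control (SE 0.10, limma adjusted p = 0.0458) and differed by 0.27 from Sfpq+/- (limma adjusted p = 0.117). C1qa passed in neither comparison, with 0.25 (SE 0.10, limma adjusted p = 0.139) and 0.32 (SE 0.10, limma adjusted p = 0.0564). Every kept probe set of the 3 genes, 4 of C1qa, 6 of C1qb and 5 of C1qc, was higher in Sfpq-/- than in control. The calls of C1qb and C1qc against control held in 1 of the 6 fits that left out an array, and that of C1qb against Sfpq+/- in 4 of 6.

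The chemokine and purine receptors that microglia use to sense neurons and tissue damage form the next group. Cx3cr1, the fractalkine receptor, was at 7.27, 7.44 and 7.50 in controls, 7.39, 7.49 and 7.59 in Sfpq+/- and 7.63, 7.82 and 7.69 in Sfpq-/- cortex. P2ry12, the ADP receptor, was at 7.91, 7.86 and 7.80 in controls, 8.01, 8.09 and 8.01 in Sfpq+/- and 8.09, 8.24 and 8.06 in Sfpq-/- cortex. Cx3cr1 separated the Sfpq-/- arrays from the other 6, whereas the P2ry12 arrays of both mutant groups lay above the controls and overlapped each other. Cx3cr1 rose by 0.31 against control (SE 0.09, limma adjusted p = 0.0461) and differed by 0.22 from Sfpq+/- (limma adjusted p = 0.155). P2ry12 rose by 0.28 against control (SE 0.08, limma adjusted p = 0.0365) and differed by 0.10 from Sfpq+/- (limma adjusted p = 0.512). P2ry12 was also the member with the smallest p in Sfpq+/- against control (0.18, SE 0.08, unadjusted p = 0.0364, limma adjusted p = 0.886). The call of Cx3cr1 against control ended in all 6 fits that left out an array and that of P2ry12 in 5. Gpr34, the X-linked lysophosphatidylserine receptor, differed from control by 0.16 (limma adjusted p = 0.52), with 3 of its 8 probe sets kept.

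**Figure D1:**
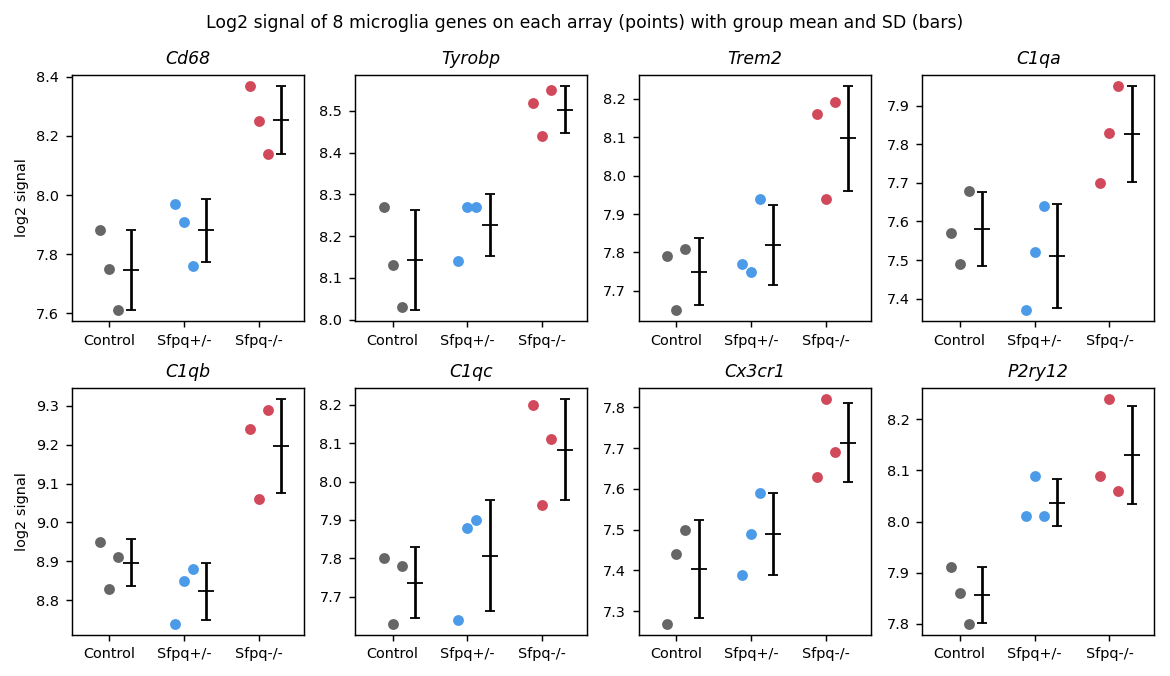
Log2 signal (vertical axes, each with its own range that does not start at 0) of 8 genes on the 9 arrays, by genotype. Points are arrays and black bars are group means with SD (n = 3); for all but P2ry12 the lowest Sfpq-/- point is at or above the highest point of the other groups.

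Cd14, the lipopolysaccharide co-receptor, was called against Sfpq+/- cortex alone. It was at 6.07, 5.96 and 6.09 in controls, 5.96, 5.91 and 6.01 in Sfpq+/- and 6.27, 6.30 and 6.12 in Sfpq-/- cortex. The 3 Sfpq-/- arrays were again the highest, but the level is close to the limit of 5.64 below which probe sets were left out as dim. Its difference was 0.26 from Sfpq+/- (SE 0.08, limma adjusted p = 0.0497) and 0.18 from control (SE 0.08, limma adjusted p = 0.169). With 1 array left out, the call against Sfpq+/- was lost in 5 of 6 fits, and it was lost in 7 of 10 other alternatives, with a limma adjusted p of up to 0.517. The difference from control was -0.03 when the median of the probe sets stood for the gene, and 3 of its 5 kept probe sets were higher.

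Ly86, Irf8 and Laptm5 were the members with the smallest p against control among those not called in either comparison. Ly86, which encodes the MD-1 partner of a Toll-like receptor relative, was at 9.50, 9.38 and 9.23 in controls, 9.34, 9.52 and 9.55 in Sfpq+/- and 9.70, 9.61 and 9.62 in Sfpq-/- cortex (0.27 against control, SE 0.09, limma adjusted p = 0.0789). Irf8, a transcription factor that microglia need, was at 7.67, 7.52 and 7.58 in controls, 7.54, 7.54 and 7.60 in Sfpq+/- and 7.73, 7.90 and 7.76 in Sfpq-/- cortex (0.21, SE 0.08, limma adjusted p = 0.116). For Ly86 and Irf8 the Sfpq-/- arrays were the highest of the 9. Laptm5, a lysosomal membrane protein of blood cells, was at 9.13, 9.12 and 9.09 in controls, 9.17, 9.36 and 9.25 in Sfpq+/- and 9.32, 9.22 and 9.41 in Sfpq-/- cortex (0.20, SE 0.08, limma adjusted p = 0.137). Both mutant groups lay above the controls for Laptm5 and overlapped each other.

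The Fc receptors and their shared gamma chain, which bind antibody-coated particles, did not pass against control. Fcer1g, the gamma chain, was at 8.73, 8.63 and 8.67 in controls and at 9.09, 8.93 and 8.83 in Sfpq-/- cortex (0.28, SE 0.12, limma adjusted p = 0.174). The groups did not overlap, but Sfpq+/- arrays ranged from 8.53 to 8.96 and overlapped both. Fcgr3 differed by 0.21 (limma adjusted p = 0.189) and Fcgr1 by 0.15 (limma adjusted p = 0.331). Cd53, a tetraspanin of white blood cells, differed by 0.22 (limma adjusted p = 0.195) and Cyth4, an exchange factor for ARF proteins, by 0.16 (limma adjusted p = 0.244), each without overlap between Sfpq-/- and control arrays.

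Csf1r and 3 widely used markers of microglia and leukocytes gave smaller differences with intervals that span 0. Csf1r, the growth factor receptor on which microglia depend, was at 8.21, 8.30 and 8.21 in controls, 8.35, 8.27 and 8.45 in Sfpq+/- and 8.25, 8.53 and 8.34 in Sfpq-/- cortex. Its difference from control was 0.13 (95% interval -0.07 to 0.32, limma adjusted p = 0.435), and its difference from Sfpq+/- was 0.01 (95% interval -0.18 to 0.21). Aif1, the actin-binding protein Iba1 used to stain microglia, differed from control by 0.06 (95% interval -0.23 to 0.35) with a control array, at 6.71, the highest of the 9. Ptprc, the leukocyte phosphatase CD45, differed by 0.10 (95% interval -0.09 to 0.29), and the integrin gene Itgam, or CD11b, by 0.05 (95% interval -0.11 to 0.21). The upper ends of these 4 intervals run from 0.21 to 0.35, and a p above the threshold does not show that they were unchanged.

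Tmem119 and Siglech, which mark mature microglia, differed from control by 0.06 (95% interval -0.16 to 0.29) and 0.01 (95% interval -0.25 to 0.27). The border macrophage genes among the members, Mrc1 and Pf4, did not pass either, though Lyve1 of the related list did (0.45, limma adjusted p = 0.0248). Mrc1, the mannose receptor CD206, differed by 0.24 (95% interval -0.05 to 0.52), with 30 of its 32 probe sets higher. The chemokine gene Pf4 differed by 0.13 (95% interval -0.17 to 0.42). Mrc1 was highest on Sfpq-/- 2, at 8.55, and at 8.10 and 8.12 on the other Sfpq-/- arrays, which lay within the range of the controls (7.84 to 8.18). Pf4 differed by 0.36 from Sfpq+/- cortex (SE 0.13, limma adjusted p = 0.121), where its arrays were at 8.42, 8.77 and 8.28. Lyz2, the macrophage lysozyme, spread most within a group, with 7.70, 8.24 and 7.46 in Sfpq-/- cortex, and differed by 0.08 (95% interval -0.30 to 0.47).

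The other members were the cysteine protease gene Ctss (0.13), the co-stimulatory gene Cd86 (0.05), the exchange factor gene Vav1 (0.06) and Coro1a (-0.08), an actin regulator. None of the 4 passed against control, with limma adjusted p of 0.569, 0.793, 0.722 and 0.714. Coro1a was the one member with a change below 0, and 10 of its 13 probe sets were lower in Sfpq-/- than in control. In all, 24 members did not pass against control, and 8 of them had Sfpq-/- arrays that were all above the control arrays. Over all genes, called or not, 16.1% had this. Lyz2 and the Fc receptor genes have close relatives in the genome, so their signal may include those copies.

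**Figure D2:**
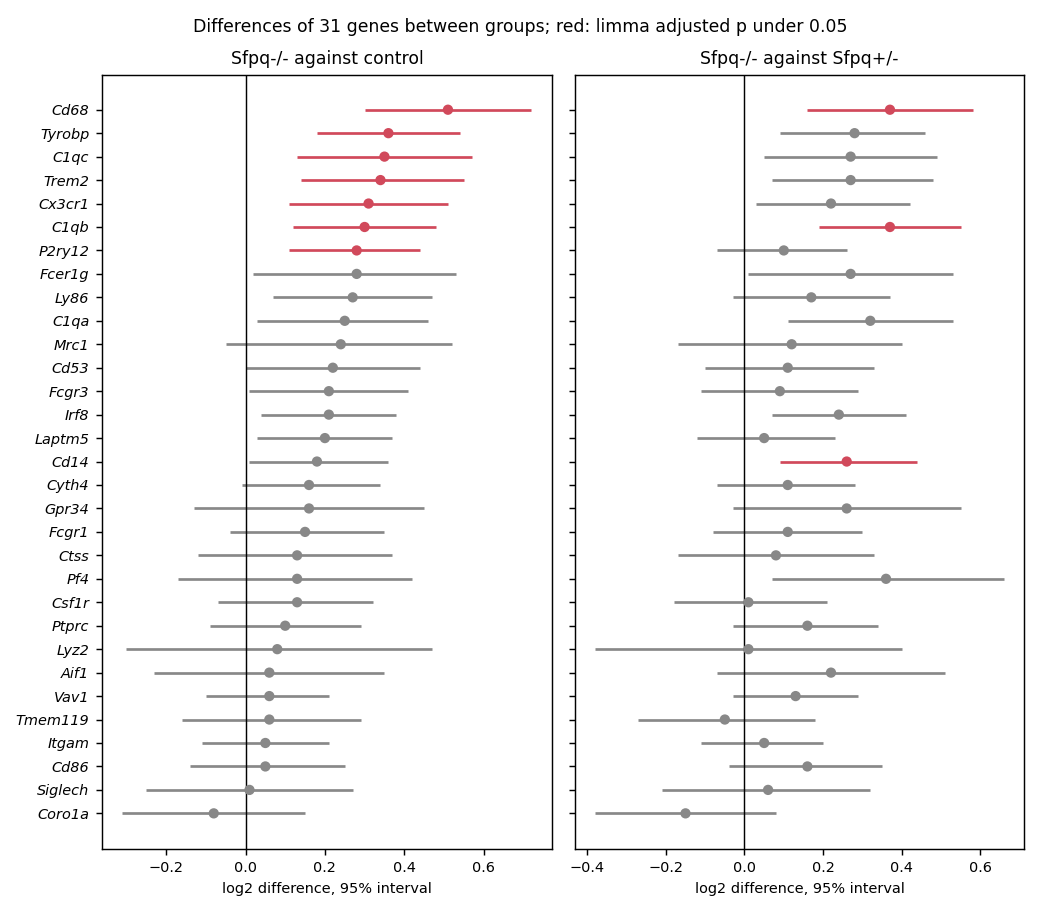
Log2 difference (horizontal axes) of each of the 31 genes between Sfpq-/- and control (left) and between Sfpq-/- and Sfpq+/- (right), with 95% intervals, in 1 order on both sides. Red marks genes past limma's threshold: 7 on the left, led by Cd68 at 0.51, and 3 on the right; both sides share the Sfpq-/- arrays.

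Counted by arrays, 15 of 31 members (48.4%) had Sfpq-/- arrays that were all higher than the control arrays and none had them all lower, where 16.1% of all genes were higher and 10.8% lower (26.9% in either direction). Against Sfpq+/- arrays 13 members (41.9%) were higher, and none lower, beside 13.2% of all genes higher and 13.6% lower (26.9% in either direction). The Sfpq-/- arrays were above all 6 others for 11 members (35.5%; Cd68, Tyrobp, C1qa, C1qb, C1qc, Trem2, Cx3cr1, Ly86, Cd14, Irf8 and Cyth4), beside 9.52% of all genes, and below all 6 others for no member, beside 9.04%. In Sfpq+/- against control 2 members (6.45%; P2ry12 and Laptm5) were higher without overlap, beside 8.52% of all genes, and none was lower, beside 3.99%. The comparisons with Sfpq-/- share its 3 arrays and all come from 1 fit, so they are given side by side and are not separate evidence.

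Array by array, the mean level of the 31 members was 7.65, 7.68 and 7.65 in controls, 7.59, 7.73 and 7.74 in Sfpq+/- and 7.83, 7.87 and 7.84 in Sfpq-/- cortex. The group means were 7.66 ± 0.02 (SD, n = 3), 7.68 ± 0.08 (SD, n = 3) and 7.85 ± 0.02 (SD, n = 3). The 3 Sfpq-/- arrays were alike in this mean, and the Sfpq+/- arrays were less alike, since Sfpq+/- 1 was the lowest of all arrays. On Sfpq-/- 1, 2 and 3, 23, 28 and 28 of the 31 members were above their own mean over the 9 arrays. On controls 1, 2 and 3 the counts were 5, 10 and 8, and on Sfpq+/- 1, 2 and 3 they were 3, 13 and 20. Sfpq+/- 1 held the lowest value of the 9 for 11 members. The share of all genes above their own mean was not computed for each array. The mean deviation from the 9 arrays ran from -0.040 to 0.031 over all genes and from -0.14 to 0.14 over the members. These counts restate the values behind the calls and are not separate evidence. In bulk tissue a larger share of macrophages and more RNA of these genes per cell cannot be told apart.

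**Figure D3:**
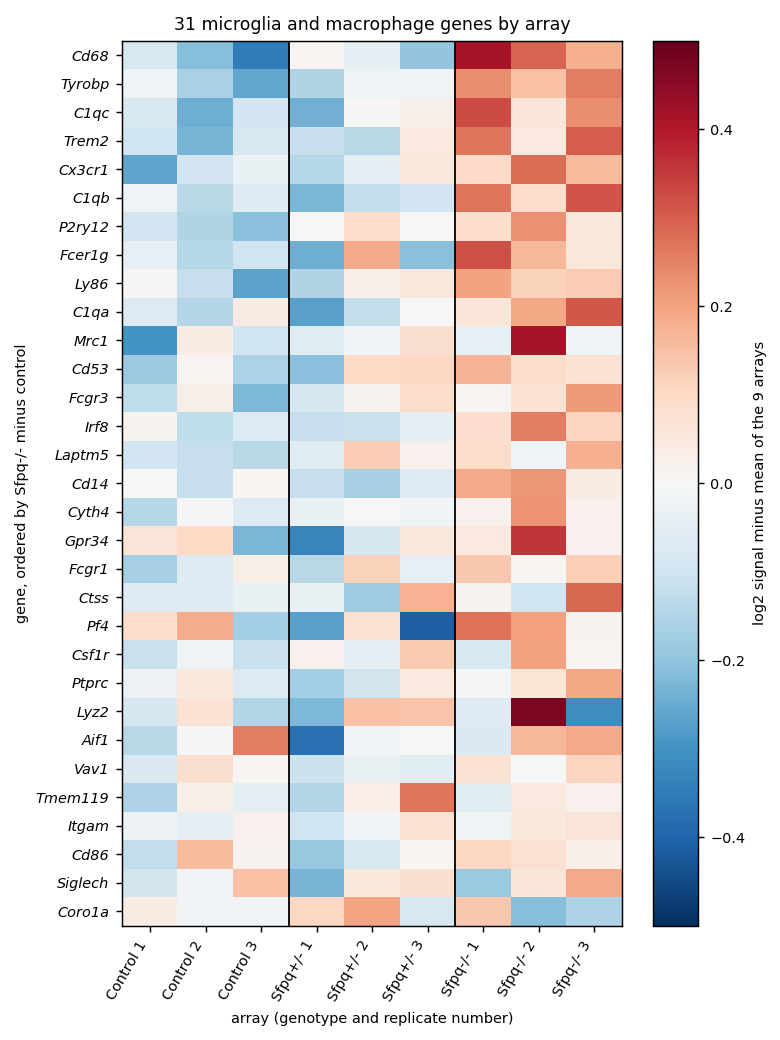
Log2 signal of the 31 genes on each of the 9 arrays as the difference from the gene's mean over all arrays (colour scale, log2 units), ordered by the difference between Sfpq-/- and control. Red is above and blue below that mean; 23, 28 and 28 genes are above it on the 3 Sfpq-/- arrays.

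The probe sets of a gene, each covering an exon or part of one, were read singly as well. Of 434 probe sets annotated to members, 310 (71.4%) were bright enough to be kept, between 3 and 32 per gene. Of these, 235 (75.8%) were higher in Sfpq-/- than in control, against 50.7% of all kept probe sets, with a median of 0.171 against 0.004. All kept probe sets are an unlike background: 248590 of the 628415 belong to the genes measured, and the others do not. The same holds for each share of all kept probe sets below. At gene level, 56.8% of all genes lay above 0. In 11 members every kept probe set was higher, among them the 7 called genes with 43 probe sets. The gene level is the mean of these same probe sets, so their agreement, here and for the single genes above, is not separate support. The share of all genes with every kept probe set higher was not computed. Ptprc kept 15 of its 53 probe sets and Vav1 11 of its 31, so most of their probe sets do not enter the gene level. No single member probe set passed limma's test over all kept probe sets in any of the 3 comparisons, where 0.561% were called higher and 1.19% lower in Sfpq-/- against control, and 0.425% higher and 1.5% lower in Sfpq-/- against Sfpq+/-. At an unadjusted p under 0.05 there were 41 member probe sets (13.2%) in Sfpq-/- against control, beside 10.7% of all. In Sfpq-/- against Sfpq+/- there were 25 (8.06%), beside 11.2% of all, and in Sfpq+/- against control 13 (4.19%), beside 4.49%.

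**Figure D4:**
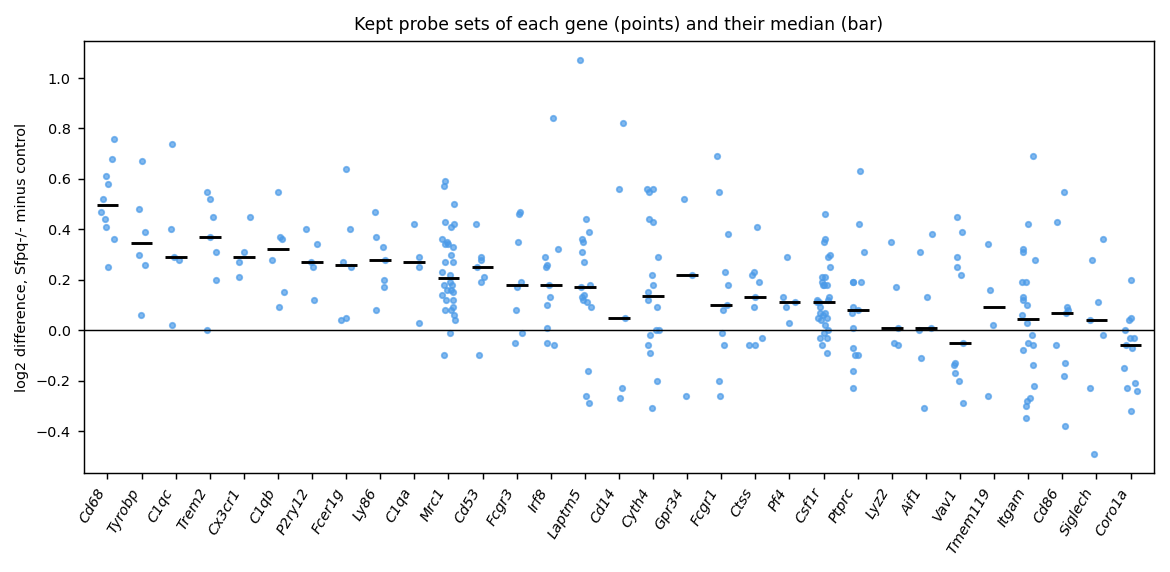
Log2 difference between Sfpq-/- and control (vertical axis) for every kept probe set (points) of each of the 31 genes, with the median of a gene as a bar; points are spread sideways for legibility. All 10 points of Cd68 lie between 0.25 and 0.76, and 10 of the 13 points of Coro1a lie below 0.

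Ligands and other genes of the same cells were read from lists of related genes. Beside the list counts that follow, 5.98% of all genes measured were called higher against control and 6.12% lower. Against Sfpq+/- these shares were 4.58% and 7.25%. The ligand of Cx3cr1, Cx3cl1 or fractalkine, made by neurons in the brain, was at 7.74, 7.52 and 7.74 in controls, 7.76, 7.85 and 7.79 in Sfpq+/- and 8.68, 8.68 and 8.59 in Sfpq-/- cortex. It rose 1.98-fold against control (log2 change 0.98, SE 0.08, limma adjusted p = 1.53e-05) and 1.81-fold against Sfpq+/- (0.85, SE 0.08, limma adjusted p = 4.12e-05), with no overlap. The list of ligands, chemokine axes and growth factor receptors had 16 measured genes, of which 6 rose and 1 fell against control. Cd200 (0.53), whose receptor restrains microglia, the chemokine receptor Cxcr4 (0.41), Tgfb1 (0.33), Sirpa (0.28), the receptor for the signal Cd47, and Tgfb2 (0.25) rose too, while the scavenger receptor Ackr3 fell by 0.47. Csf1, a ligand of Csf1r, differed by 0.18 (limma adjusted p = 0.124), and Il34, its other ligand, by -0.02 (limma adjusted p = 0.935).

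Of 14 other microglia genes measured, 3 rose and 1 fell against control. P2ry13, a purine receptor next in kind to P2ry12, rose by 0.54 (SE 0.08, limma adjusted p = 0.00152) from 7.69, 7.80 and 7.58 in controls to 8.26, 8.20 and 8.23. Fcrls and Sparc each rose by 0.33 and the transcription factor Sall1, which cortical progenitors also express, fell by 0.27. Control means were 8.05 for Fcrls, 11.84 for Sparc and 10.33 for Sall1. Which cells of the tissue gave these signals was not tested, for genes that rose as for Sall1. Of 13 complement genes the anaphylatoxin receptors C5ar1 (0.55) and C3ar1 (0.40) and the complement inhibitor Cd55 (0.43) rose, while Masp1 fell by 0.36. Of 20 Fc receptor and ITAM signalling genes the adaptor Lcp2 (0.31) and Lilrb4a (0.43) rose and none fell. Runx1 (0.40) was the 1 of 13 myeloid transcription factors to rise, Lyve1 (0.45) the 1 of 12 border and yolk sac macrophage genes, and Cd63 (0.32) the 1 of 28 phagocytosis and lysosome genes, with none lower against control in these 3 lists. Single calls in lists of this size are near the 5.98% of all genes called higher. Against Sfpq+/-, Runx1 was higher by 0.46 (limma adjusted p = 0.0163). Mef2c, also a myeloid transcription factor, was lower there by 0.38 (limma adjusted p = 0.00929), and no gene of the other lists among these 3 passed.

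Inflammatory genes were measured beside these. None of 17 inflammatory cytokine and sensor genes passed against control in limma's test. The smallest p among them was that of the chemokine Ccl3 (0.46, limma adjusted p = 0.0674). Of 9 interferon response genes Irf9 rose by 0.36 against control and no other passed. The medians over the lists against control were 0.09 and 0.06. Against Sfpq+/- they were 0.11 and 0.23, and 2 genes of each list passed, all higher (Tlr7 and Arg1, and Irf9 and Usp18).

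Markers of other cells the dissection could hold moved as follows, and their part in the members' differences was not tested. Of 14 endothelial and pericyte genes 14 were above 0 against control, with a median of 0.11, and Rgs5 (0.30) rose. Their mean level was 8.88 to 9.01 on control and 8.99 to 9.23 on Sfpq-/- arrays. Of 12 meningeal and mesenchymal genes 11 were above 0 (median 0.12) and none passed, with mean levels of 8.82 to 9.10 and 9.03 to 9.21. Of 8 erythroid genes 1 was above 0 (median -0.17) and none passed, with mean levels of 9.23 to 9.39 in controls and 8.96 to 9.24 in Sfpq-/- cortex.

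Markers of other white blood cells were read in the same way. The medians against control were 0.03 for 7 lymphoid genes, -0.07 for 6 neutrophil and monocyte genes and 0.02 for 7 megakaryocyte and platelet genes, and no gene of these lists passed. Against Sfpq+/- the medians were 0.07, 0.20 and 0.07, beside 0.16 for the members. There 5 of the 6 neutrophil and monocyte genes were above 0, and the platelet gene Gp6 passed (0.32, limma adjusted p = 0.0315). The mean level ran from 6.71 to 6.92 in controls and from 6.68 to 6.99 in Sfpq-/- cortex for lymphoid genes, and from 6.91 to 6.99 and from 6.80 to 6.92 for neutrophil and monocyte genes. For megakaryocyte and platelet genes, cells in which the member Pf4 is also made, it ran from 7.89 to 7.96 and from 7.92 to 7.98. Of 7 mast cell genes Kit (0.32) rose, a gene that other cells also express. Of 9 neuron genes Neurod6 fell by 0.41 and none rose, and none of 10 radial glia genes passed. As the tissue label calls for, both lists were present on every array, with mean levels from 10.63 to 10.95 and from 10.82 to 11.05. No probe set of any list was listed at 0 on all arrays.

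**Figure D5:**
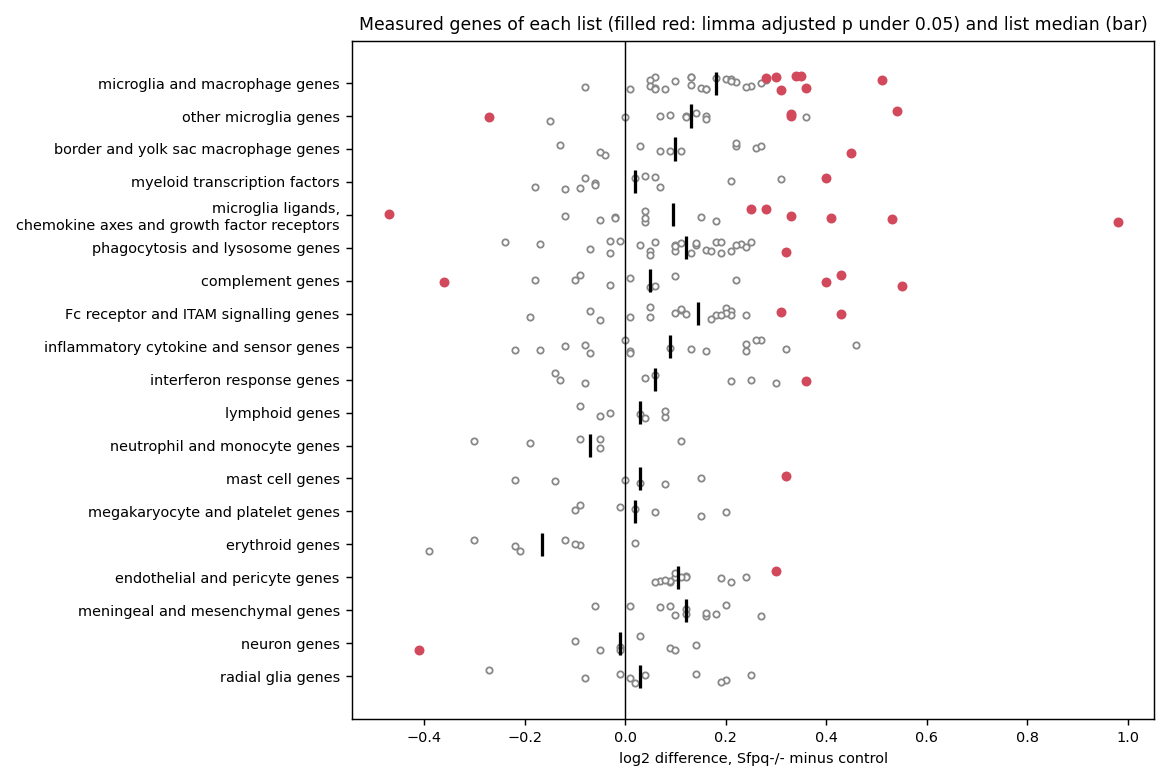
Log2 difference between Sfpq-/- and control (horizontal axis) of each measured gene (points) of the 31 microglia and macrophage genes and of 18 related lists, with each list's median as a bar; points are spread vertically for legibility. Filled red points passed limma's test; the farthest to the right is Cx3cl1 at 0.98.

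The arrays were checked for their labels. The mean of 12 Sfpq probe sets, picked because they were bright on the control arrays, lay between 12.07 and 12.12 on control arrays. It lay between 11.87 and 12.08 on Sfpq+/- and between 9.99 and 10.31 on Sfpq-/- arrays. Over all 23 Sfpq probe sets the level was 9.88 to 10.33, 10.09 to 10.53 and 8.74 to 9.27. Both sets of values set apart the Sfpq-/- arrays and not the Sfpq+/- arrays. Embryo sex was not matched: Xist, the RNA of the inactive X, was high on 3 arrays (controls 1 and 2 with 11.79 and 11.65, and Sfpq-/- 1 with 11.48) but reached at most 5.87 on the rest. Xist signal was entered as a yes-or-no covariate (above 8 or not). With it, 3 members were called against control (Cd68, Tyrobp and Ly86) in place of 7. That is 9.68% of members beside 6.27% of all genes called higher and 11.8% in either direction.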

How the data were processed

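The authors deposited 1 log2 signal for each probe set of 9 exon arrays. The submitters' processing notes name Affymetrix Expression Console 1.2.0.20, and the design text the Exon Array Computational Tool. How background was corrected and signals were summarised or scaled is not stated. The log2 unit was taken from the values, and array medians ran from 5.648 to 5.697. Names are those of the platform annotation, updated through RefSeq synonyms; all 31 members kept their symbol there. Of 1256831 probe sets, 318760 had 1 symbol, 6684 several (not used) and 931387 were unnamed here.

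Probe sets whose mean over the 9 arrays exceeded the median of all means (5.64) were kept (628415). Kept probe sets were averaged per gene, with 3 as the minimum. All 9 arrays entered 1 model with 3 group means in limma 3.58.1 (R 4.3.3), with Benjamini-Hochberg adjustment over 16854 genes or 628415 probe sets. The fits were checked on simulated data with 50 planted changes of each size. Of planted log2 changes of 0.3, 0.5, 1 and 2, the fit found 14%, 60%, 96% and 98%, with 6 false calls. In the simulation most planted changes of 0.3 were thus missed. Few genes were planted there, while 2040 of 16854 genes were called in the data against control. The adjusted threshold is therefore not alike, and the share found does not carry over to the data. Members and lists were chosen with earlier results of these data known, so list counts are descriptions. Per-array values follow a rule: members called in either Sfpq-/- comparison and the 3 others with the smallest p against control. C1qa, Csf1r, Cx3cl1, P2ry13 and single arrays of Fcer1g, Aif1, Mrc1, Pf4 and Lyz2 were added after their values were seen. Related lists name the genes that passed. Groups came from the titles, which the genotype fields match; the extraction text names Sfpq+/- where Sfpq-/- would be looked for, and Sfpq signal does not set Sfpq+/- arrays apart from controls. The number of arrays limits the precision: the median SE of a member's difference was 0.090.

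Same-numbered control and Sfpq-/- arrays had residual correlations of 0.28, 0.01 and 0.57. For control and Sfpq+/- these were 0.25, 0.05 and 0.31, and for Sfpq+/- and Sfpq-/- they were -0.06, 0.04 and 0.30. Arrays of different numbers ran from -0.53 to 0.36. The labels name no litter, so the numbers were not taken to pair samples, and these correlations do not exclude pairing. No build is stated for the array annotation; coordinates belong to RefSeq promoters (GRCm38.p6).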

Additional observations from a re-analysis of the deposited data

How the results depend on the processing

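Cd68 was called against control under all 17 alternatives tried (log2 change 0.44 to 0.59) and Tyrobp under 14 of 17 (0.30 to 0.42). The number of members called against control follows, with their share and that of all genes called higher. It was 4 with the median of probe sets (12.9%, 3.95%), 3 with no filter on dim probe sets (9.68%, 3.98%), 2 with at least 1 kept probe set (6.45%, 3.76%), 2 with the 6 arrays compared alone (6.45%, 3.96%), 3 with the median of all genes subtracted (9.68%, 7.4%), 3 with Xist signal as a covariate (9.68%, 6.27%) and 12 with gene-by-gene array weights (38.7%, 16.4%). In either direction, 8.29%, 8.84%, 14% and 11.8% of all genes were called with at least 1 probe set, the 6 arrays, the median subtracted and Xist, above the members' share. The gene-by-gene weights, under which 27.4% of all genes were called, were added after seeing the data, since the planned estimate over all genes did not converge and was not run. The count ran from 1 to 5 over the fits without 1 array. The median change of the members was 0.222 with brighter probe sets (above 7.33) and 0.116 with gene-by-gene weights, and ran from 0.154 to 0.203 without 1 array. The count of members whose arrays do not overlap ran from 11 (35.5%, beside 24.4% of all genes) with the median of probe sets to 20 (64.5%, beside 31.4%) without control 2. It was 16 (51.6%) without Sfpq-/- 3, where 45.2% of all genes did not overlap. Member probe sets called were 4 among brighter probe sets, 1 with the Xist covariate, 1 with an intensity trend and robust variance and 2 with gene-by-gene weights, and 0 to 1 without 1 array. The share of all probe sets called was not computed for these alternatives, so the counts cannot be set beside it. Against Sfpq+/- the number of members called was 6 with the median of all genes subtracted (19.4%, beside 7.74% of all genes called higher), 8 with gene-by-gene weights (25.8%, beside 10.3%) and 0 to 3 without 1 array; against control no member was called in Sfpq+/- under any alternative.

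With the replicate number as a block, 7 members were called against control (22.6%, beside 7.73% of all genes called higher and 14.6% in either direction). In Sfpq-/- against Sfpq+/- there were 5 (16.1%, beside 5.71% and 14%). The numbers were not shown to pair the samples. Differences that changed sign, none past the threshold, were those of Aif1 (-0.02 with the median of probe sets, -0.04 with the Xist covariate, -0.03 with gene-by-gene weights), Cd14 (-0.03) and Cd86 (-0.09) with the median of probe sets, Siglech (-0.01 with no filter, -0.08 with the Xist covariate, -0.12 with gene-by-gene weights) and Vav1 (-0.07 among brighter probe sets). With gene-by-gene weights so did Coro1a (0.07), Lyz2 (-0.05), Ptprc (-0.00) and Tmem119 (-0.02). Without 1 array the sign changed for Aif1, Cd86, Siglech and Lyz2, with ranges of -0.03 to 0.17, -0.02 to 0.12, -0.08 to 0.11 and -0.14 to 0.25. The cause of these shifts was not tested. Signal close to the dim limit of 5.64 restricts what can be said of Cd14, Aif1, Siglech and Cd86.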
